A study of Mus musculus with 2 samples.

Results

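The sodium-potassium ATPase is the membrane pump built from an alpha and a beta subunit. Chromatin accessibility at 4 of its subunit genes is described here: Atp1b1, Atp1b2 and Atp1b3, which encode beta subunits, and Atp1a4, which encodes an alpha subunit. The 4 genes were taken by name from the 55413 genes of the mouse annotation GENCODE M21, of which 21938 are protein-coding. DNase-seq, in which DNase I releases DNA that is not packed into closed chromatin, was carried out on left cerebral cortex from female mice aged 14 days. The animals were B6CASTF1/J, the first-generation cross of C57BL/6J with CAST/EiJ. The labels name no treatment or engineered allele. There are 2 libraries, which the labels call biological replicates 1 and 2. Each has its own animal number, and both fall under 1 donor record. The libraries form 1 group, so there is nothing to contrast and no p-value is given. Each result shows both libraries, and a mean comes with the SD over these 2 libraries.

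The pump uses ATP to carry sodium out of the cell and potassium in, and so maintains the gradients on which the firing of neurons and the clearing of potassium and glutamate by astrocytes depend. The alpha subunit binds the ions and ATP. The beta subunit is needed for folding and delivery of the pair to the membrane, and it takes part in contacts between cells. In brain the beta1 subunit (Atp1b1) is known chiefly from neurons. The beta2 subunit (Atp1b2) is known from glia and was described as the adhesion molecule on glia, and the beta3 subunit (Atp1b3) is found in many tissues. The alpha4 subunit (Atp1a4) is known from sperm, where it serves motility.

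The upstream sequences of 3 genes are shown first because they include both open and closed promoters of the group. RefSeq promoter sequences were matched for Atp1b1, Atp1b3 and Atp1a4, 3 of the 4 genes. Sequences are from GRCm38.p6 (mm10), the C57BL/6J reference, printed 5′ to 3′ on the minus strand, the strand of all 4 genes. The CAST/EiJ allele of these animals may differ. Capitals mark bases that lay inside a footprint of both libraries. A footprint is a short stretch, called by the authors, that DNase I cut less often than its surroundings, as happens where a protein covers the DNA. The Atp1b1 stretch is chr1:164458356-164458605, the Atp1b3 stretch is chr9:96364443-96364681, and the Atp1a4 stretch is chr1:172258425-172258674.

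Atp1b1 upstream: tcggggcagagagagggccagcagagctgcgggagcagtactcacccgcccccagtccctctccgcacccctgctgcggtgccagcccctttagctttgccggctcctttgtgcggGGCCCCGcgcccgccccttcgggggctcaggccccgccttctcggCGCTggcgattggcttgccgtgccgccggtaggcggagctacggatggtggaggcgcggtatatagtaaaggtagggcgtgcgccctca
Atp1b3 upstream: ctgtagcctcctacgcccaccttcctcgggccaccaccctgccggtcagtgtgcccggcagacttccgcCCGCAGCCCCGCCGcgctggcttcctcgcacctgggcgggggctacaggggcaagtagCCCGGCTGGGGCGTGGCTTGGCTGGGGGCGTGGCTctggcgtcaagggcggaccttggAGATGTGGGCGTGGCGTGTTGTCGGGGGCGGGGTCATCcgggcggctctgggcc
Atp1a4 upstream: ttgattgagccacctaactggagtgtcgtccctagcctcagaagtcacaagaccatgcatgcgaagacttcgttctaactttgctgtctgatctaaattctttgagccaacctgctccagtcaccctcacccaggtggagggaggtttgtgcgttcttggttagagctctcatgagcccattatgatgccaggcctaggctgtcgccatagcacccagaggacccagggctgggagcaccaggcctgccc

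Footprints of both libraries covered 87 of the 239 bases printed for Atp1b3, 11 of 250 for Atp1b1 and 0 of 250 for Atp1a4. The starts of Atp1b1 and Atp1b3 were richer in GC and CpG than that of Atp1a4. In the window from 250 bases before to 50 after the RefSeq start site, GC content was 71% for Atp1b1 and 76% for Atp1b3, against 55.67% for Atp1a4. The ratio of observed to expected CpG sites was 0.8208 for Atp1b1, 0.7937 for Atp1b3 and 0.2632 for Atp1a4. Of 32851 RefSeq promoters of that length, 80.87% had a lower ratio than Atp1b1, 78.54% a lower one than Atp1b3 and 37.32% a lower one than Atp1a4.

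Short motifs were searched on both strands of the printed upstream stretches. A match describes letters only. The GC box GGGCGG, the letters bound by Sp and Klf factors, was found at 2 places in Atp1b1, at 5 in Atp1b3 and at none in Atp1a4, while 32.74% of all RefSeq upstream stretches of 250 bases held it. The Atp1b3 match from -29 to -24, counted from the most 5′ annotated start, lay inside footprints of both libraries. The other 4 Atp1b3 matches lay wholly inside none. In Atp1b1 the match from -124 to -119 lay inside a footprint of replicate 2 only. Atp1b1 also held the CCAAT box CCAAT from -81 to -77, a motif present in 33.85% of upstream stretches. The exact TATA box letters TATAAA were found in none of the 3 stretches and in 12.37% of all. Other forms of the TATA box were not searched, and the Atp1b1 stretch holds the letters tatata near its 3′ end. A GC box variant, GGGCGTGGC, was chosen after the footprints had been seen. It occurred at 3 places in Atp1b3, from -104 to -96, from -87 to -79 and from -48 to -40, each inside footprints of both libraries. It was present in 2.651% of all upstream stretches. Because the variant was picked from these footprints, its position in them is a description only.

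The labelled tissue was checked against marker genes. A DHS (DNase I hypersensitive site) is a peak that the authors called in 1 library, and a promoter DHS is one that overlaps the 1 kb on either side of any annotated transcription start site (TSS) of a gene. Promoter DHSs were present in both libraries for 5 of 5 forebrain and cortex markers, 4 of 4 neuronal markers, 3 of 4 astrocyte markers, 1 of 4 oligodendrocyte markers, 1 of 3 microglial markers and 0 of 3 endothelial markers. None of 5 hindbrain and spinal cord markers and none of 5 testis germ cell markers had one in either library. Of all protein-coding genes, 62.7% had a promoter DHS in both libraries, so counts from lists this short say little about cell types. The authors deposited 90059 DHSs for replicate 1 and 175597 for replicate 2, with 199455 and 416840 footprints. DHSs of both libraries merged into 78165 shared regions. The number of reads behind each library is unknown, because the files give peak signals and no counts.

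All 3 beta subunit genes had an accessible promoter in both libraries, and Atp1a4 had none in either. The signal is the value the authors gave each peak, on a scale that the sources used here do not state, and the highest peak of a promoter was used. Replicate 1 is given first throughout. The Atp1b3 promoter reached 5.541 and 3.385, the highest of the 4 genes in each library, with a mean of 4.463 ± 1.524 (SD, n = 2). The Atp1b1 promoter had a signal of 2.289 and 2.046, with a mean of 2.167 ± 0.1717 (SD, n = 2). The Atp1b2 promoter had 2.05 and 1.558, with a mean of 1.804 ± 0.3477 (SD, n = 2). Both Atp1b3 values were above every value of the other genes. The ranges of Atp1b1 and Atp1b2 touched, since the lower Atp1b1 value, 2.046, lay just below the higher Atp1b2 value, 2.05.

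**Figure D1:**
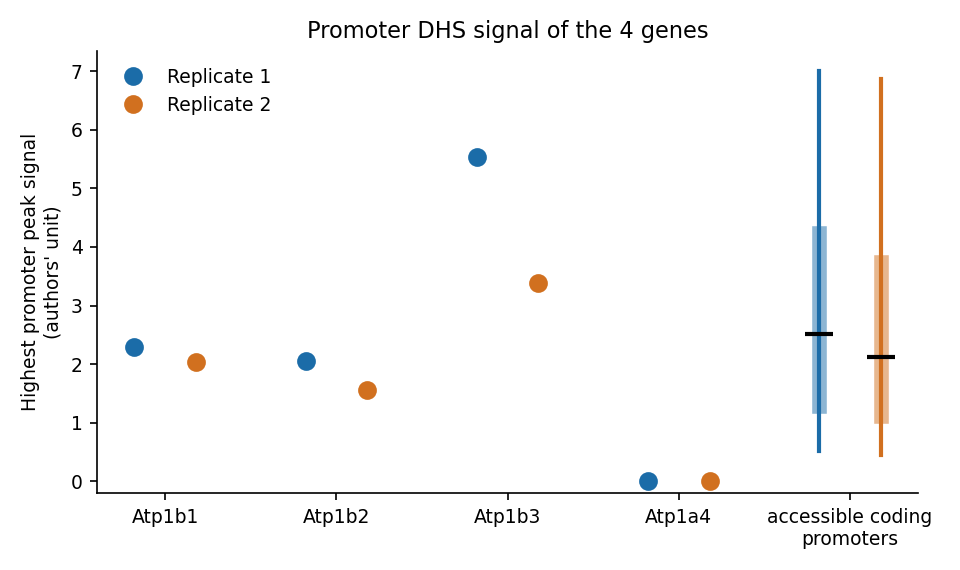
Signal of the highest promoter DHS (vertical axis, the authors' unit) of each gene in replicate 1 (blue) and replicate 2 (orange), with Atp1a4 drawn at 0 because it had no promoter DHS. At the right, the spread over protein-coding genes with a promoter DHS in both libraries is shown as the 5th to 95th percentile (line), the 25th to 75th (broad bar) and the median (black dash, 2.52 and 2.131): Atp1b3 lies above the median in both libraries, Atp1b1 and Atp1b2 below it.

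Having 3 of 4 genes with a promoter DHS in both libraries was close to the background. Of all protein-coding genes, 62.7% had one in both libraries, 63.6% in replicate 1 and 67.8% in replicate 2. The authors' smaller peak list held 52034 and 105095 DHSs and is called stricter here for its size alone. In that list the same 3 of 4 genes had a promoter DHS in both libraries, beside 57.2% of coding genes. The count alone is therefore no result about these genes. The levels placed the genes within the accessible promoters. Atp1b3 exceeded 87.73% of them in replicate 1 and 70.58% in replicate 2. Atp1b1 exceeded 45.91% and 48.21%, and Atp1b2 exceeded 41.33% and 37.28%. The neuronal and the glial beta gene thus had mid-range promoters, and the widely expressed beta gene a high one. In a piece of bulk tissue, fewer cells with an open site and a less open site in each cell cannot be told apart.

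These differences were set beside the spread between libraries. Within a library, Atp1b3 was 2.421 and 1.655 times as high as Atp1b1 (mean log2 ratio 1.00 ± 0.39, SD, n = 2). It was 2.703 and 2.173 times as high as Atp1b2 (1.28 ± 0.22). Atp1b2 reached 0.8956 and 0.7616 times the Atp1b1 level (-0.28 ± 0.17). For scale, the log2 ratio of replicate 1 to replicate 2 had an SD of 0.52 over all shared DHSs. The difference of Atp1b2 from Atp1b1 was smaller than that SD, and both differences of Atp1b3 were larger. That SD is for single sites and not for a ratio of 2 genes, so it is a rough scale and no test.

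The direction between the libraries rested on the authors' scale. The promoter signal was higher in replicate 1 for each beta gene, by 1.119 times for Atp1b1, 1.316 times for Atp1b2 and 1.637 times for Atp1b3. Signals were whole multiples, within 0.1, of a step of 0.00771 in replicate 1 and 0.00498 in replicate 2. In steps, the Atp1b1 promoter had 297 and 411 and the Atp1b2 promoter 266 and 313, which are higher in replicate 2. The Atp1b3 promoter had 719 and 680 steps. No difference between the animals is read from these values.

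Each beta gene had its highest promoter DHS over the most 5′ annotated start. The Atp1b1 site (gene ENSMUSG00000026576.12, chromosome 1, 164437109 to 164458355) spanned chr1:164458181-164458580 when both libraries' peaks were merged, and its centre lay 25.5 bp upstream of the start. The Atp1b2 site (gene ENSMUSG00000041329.13, chromosome 11, 69599736 to 69605942) spanned chr11:69605761-69606080 and was centred in the first exon, 21.5 bp downstream of the start. The Atp1b3 site (gene ENSMUSG00000032412.8, chromosome 9, 96332655 to 96364442) spanned chr9:96364341-96364580 and was centred 18.5 bp upstream. Atp1b1 had 1 shared promoter DHS, Atp1b2 had 2 and Atp1b3 had 3.

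The additional promoter DHSs were weaker. In Atp1b2 an intronic one at chr11:69604781-69605180 had a signal of 0.5934 and 0.672. In Atp1b3 one at chr9:96363465-96364080, in the first part of the gene, had 0.5471 and 0.6521. It covers a further RefSeq start site at position 96363715, whose promoter window has a GC content of 74.67% and an observed to expected CpG ratio of 0.9455. The remaining Atp1b3 site, chr9:96350101-96350280, lies in an intron 14.3 kb into the gene and had 0.8477 and 1.075. It counted as a promoter DHS because a shorter annotated transcript starts 814.5 bp away.

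The Atp1b3 promoter carried wider footprints than the promoters of Atp1b1 and Atp1b2. Within 1 kb of the most 5′ start, Atp1b1 had 8 footprints in replicate 1 and 17 in replicate 2, and 3 of each overlapped one of the other library. Atp1b2 had 4 and 15, and 4 of each overlapped. Atp1b3 had 8 and 11, and 6 of each overlapped. Over all promoter windows of a gene, the median footprint width was 19.5 and 13.5 bp in Atp1b3, 7.5 and 8 bp in Atp1b1, and 8 and 9.5 bp in Atp1b2. The median over all footprints was 10 bp in each library. Promoters of similar signal were not compared, and the Atp1b3 medians include footprints of its intronic site. In Atp1b3 the footprint from -54 to -17 in replicate 1 was 38 bp wide and its counterpart in replicate 2, from -55 to -16, was 40 bp wide. Of all footprints, 3.289% in replicate 1 and 2.84% in replicate 2 were at least 35 bp wide. The widest was 21 bp in Atp1b1 and 16 bp in Atp1b2. The larger number in replicate 2 for Atp1b1 and Atp1b2 goes with the larger number of footprints in that library as a whole, and the part of depth in it was not tested.

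**Figure D2:**
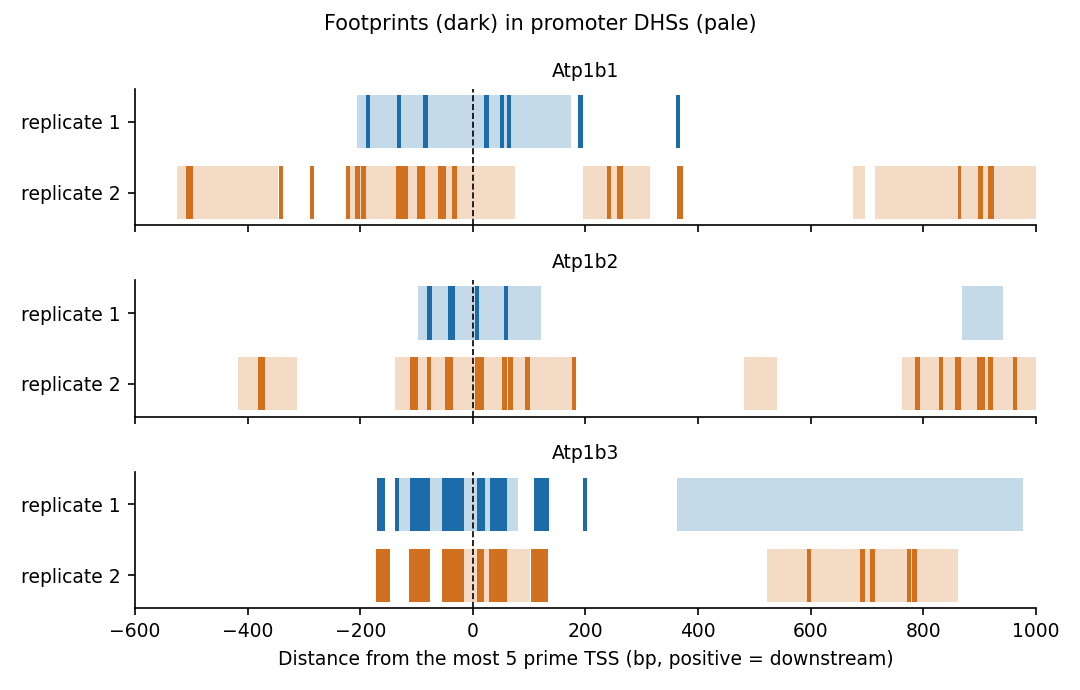
Footprints (dark blocks) and promoter DHSs (pale blocks) of replicate 1 (blue) and replicate 2 (orange) at the 3 beta subunit genes, against the distance from the most 5′ TSS in bp (horizontal axis, dashed line at the TSS). Atp1b3 has wide blocks at matching places in both libraries, up to 40 bp, while those of Atp1b1 and Atp1b2 are narrower, at most 21 bp and 16 bp.

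Over all promoter windows, 3 of the 4 genes had at least 1 footprint found in both libraries, beside 58.2% of protein-coding genes, so this count too is near the background. The authors also listed genome segments with a q-value, or false discovery rate, for the local cleavage rate, listed where it was at most 0.05. All 3 beta promoters held such segments. The highest -log10 of q was 68.61 and 66.57 at the Atp1b3 promoter, 6.654 and 43.89 at Atp1b1 and 10.53 and 25.61 at Atp1b2. Libraries were close for Atp1b3 and far apart for Atp1b1 and Atp1b2. Atp1a4 had no segment at all, over 4002 bp of promoter windows in each library. Having a segment in both libraries was again common, at 63.7% of coding genes and 3 of the 4 here.

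The body of Atp1b1 differed between the libraries more than that of nearly any other long protein-coding gene. The gene is 21.25 kb long. Replicate 1 had 1 DHS with its centre in the gene body, and replicate 2 had 36. Of those 36, 16 overlapped a DHS of the stricter list. DHSs covered 1.953% of the body in replicate 1 and 35.56% in replicate 2. Among 14164 protein-coding genes of 10 kb or more, the median coverage was 0.8617% and 1.723%, and the 95th percentile 3.906% and 5.81%. Only 1 of these genes had a higher coverage in replicate 2, whereas 2776 had a higher one than Atp1b1 in replicate 1. The gain of 33.6 percentage points ranked 2 among the long genes, whose median gain was 0.6601 points. The comparison of gene bodies was chosen after this difference had been seen.

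**Figure D3:**
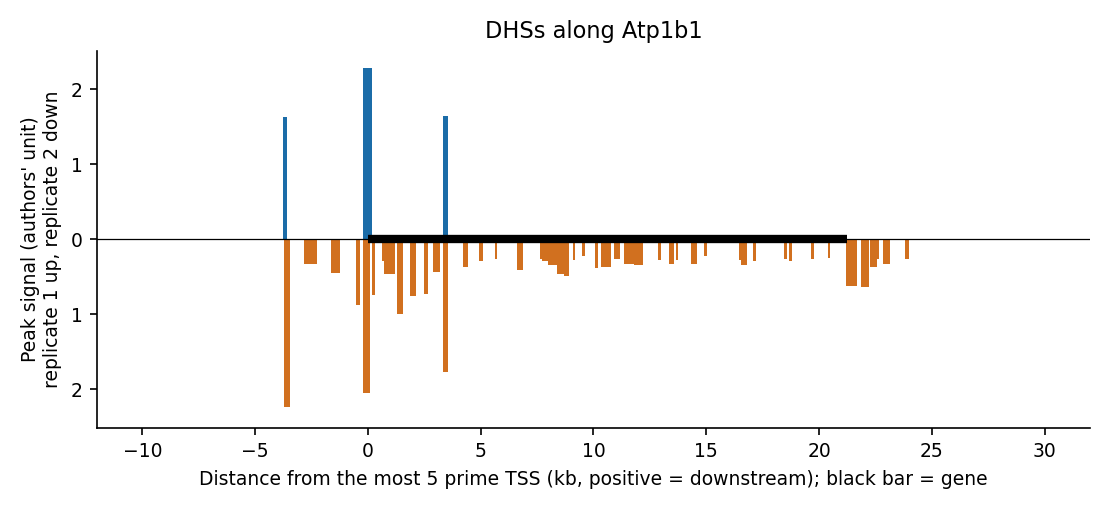
DHSs along Atp1b1 as bars at their position (horizontal axis, kb from the most 5′ TSS, the gene as a black bar) with their signal (vertical axis, the authors' unit), replicate 1 upward in blue and replicate 2 downward in orange. The 3 tall sites are in both libraries, and the low sites across and beyond the gene, most of them under 1, are in replicate 2.

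The extra sites of replicate 2 were low and dense. Joining DHSs of replicate 2 with gaps of at most 1500 bp, a setting chosen after the data were seen, gave a run of 27.73 kb at chr1:164434352-164462080. It extended 2.757 kb past the 3′ end of the gene and 3.725 kb past the 5′ start. The run held 48 DHSs of replicate 2 with signals from 0.219 to 2.235 and a median of 0.3335, and 31.52% of all DHSs of that library had a signal at or below that median. The 48 included 15 without a footprint. Replicate 1 had 3 DHSs in the same stretch, with signals from 1.634 to 2.289.

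All 3 sites of replicate 1 were matched in replicate 2. They are the promoter, an intronic site and a site at the 5′ edge of the run, which had 1.634 and 2.235 and lies near the start of the non-coding gene Gm32391. The track of q-values showed the same contrast, but it comes from the same 2 libraries and is no separate evidence. Segments at q of at most 0.05 covered 4.338% of the run in replicate 1 and 52.38% in replicate 2, and 3.135% and 44.28% of the gene body. For the long genes, the median share of the body in such segments was 1.496% and 2.737%. Footprints inside the DHSs centred in the gene body numbered 4 and 50, in 1 and 36 DHSs.

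The larger number of DHSs in replicate 2 bears on the size of this difference. With the stricter list, 13.78% of the Atp1b1 body lay in DHSs of replicate 2. With only as many DHSs as replicate 1 has, taking the highest, it was 10.67%. Both values stay above the 1.953% of replicate 1. In the larger peak lists coverage above 10% was rare, at 43 long genes in replicate 1 and 146 in replicate 2. How many long genes pass 10% with the stricter list or with equal numbers of DHSs was not counted. Whether the animals or the libraries differ here cannot be told apart with 1 library per animal.

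**Figure D4:**
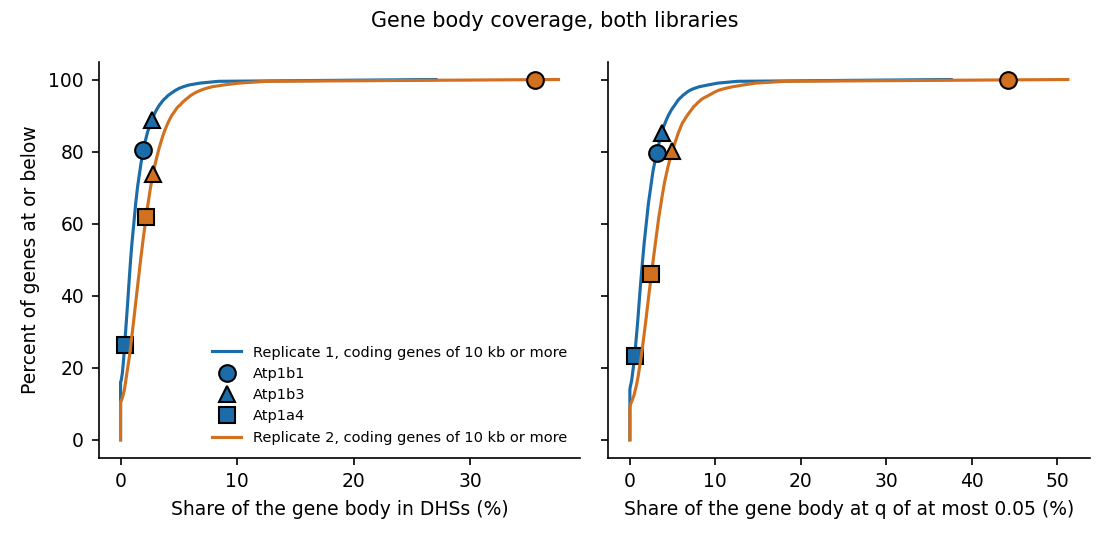
Cumulative share of protein-coding genes of 10 kb or more (vertical axis, percent) by the share of the gene body in DHSs (left) and at q of at most 0.05 (right), replicate 1 in blue and replicate 2 in orange, with Atp1b1 (circle), Atp1b3 (triangle) and Atp1a4 (square) marked. Atp1b1 moves from 1.953% to 35.56% between the libraries on the left, while Atp1b3 and Atp1a4 stay on the steep part of both curves.

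The other gene bodies changed less. Coverage by DHSs was 2.699% and 2.8% in Atp1b3, which is 31.79 kb long, and 0.3553% and 2.192% in Atp1a4, which is 34.9 kb long. Atp1b2 is only 6.207 kb long, too short for the ranking of genes of 10 kb or more. Its coverage was 5.848% and 15.53%. DHSs centred in the body numbered 3 and 5 in Atp1b2, 2 and 5 in Atp1b3, and 2 and 3 in Atp1a4. In Atp1b3, the 5 of replicate 2 include the promoter DHS, whose centre fell inside the gene in that library only.

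The intronic site of Atp1b3 is shown because it was the strongest shared site in the gene away from the main start and held one of its wide footprints. It is the site at chr9:96350101-96350280, printed from GRCm38.p6 on the minus strand, with capitals for bases in footprints of both libraries.

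Atp1b3 gene body DHS: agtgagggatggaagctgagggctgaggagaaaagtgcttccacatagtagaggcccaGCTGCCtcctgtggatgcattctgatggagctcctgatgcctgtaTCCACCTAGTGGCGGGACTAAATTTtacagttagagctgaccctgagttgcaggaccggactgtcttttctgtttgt

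This site had 2 and 3 footprints. It holds the E-box CAGCTG, the letters bound by many basic helix-loop-helix factors, at bases 57 to 62, inside a footprint of replicate 2. Of 78165 shared DHSs trimmed or extended to 180 bp, 16.84% held it. The wide footprint was 25 bp in replicate 1 and 37 bp in replicate 2. It lay apart from the E-box and held none of the motifs searched.

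**Figure D5:**
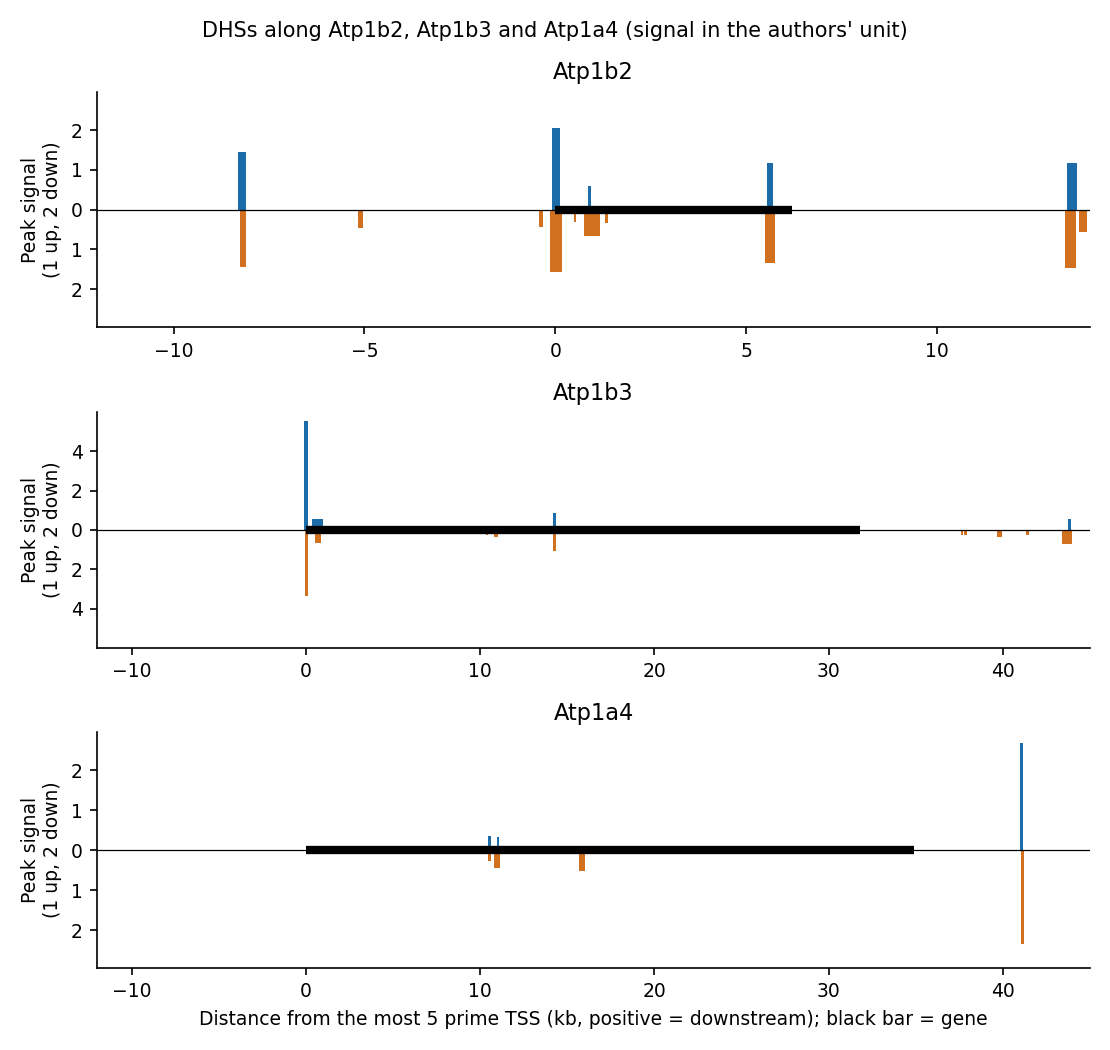
DHSs along Atp1b2, Atp1b3 and Atp1a4 as bars at their position (horizontal axis, kb from the most 5′ TSS, the gene as a black bar) with their signal (vertical axis, the authors' unit), replicate 1 upward in blue and replicate 2 downward in orange. DHSs within 1 kb of the TSS of another gene are left out; Atp1b2 and Atp1b3 have a DHS at the start in both libraries, and Atp1a4 has only low sites, at most 0.5127, in its body.

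Distal sites shared by the libraries were fewer for Atp1b1 and Atp1b3 than for Atp1b2 and Atp1a4, an order that changed with the peak list. A distal DHS here is a shared region that lies over 1 kb from the starts of all genes but no more than 50 kb from a start of the gene in question. Atp1b1 had 2, Atp1b2 had 8, Atp1b3 had 1 and Atp1a4 had 8, while the median coding gene had 3. With the stricter list the counts were 2, 6, 0 and 1 in the same order, so that Atp1a4 fell below Atp1b1. In replicate 2 alone they were 46, 12, 15 and 12, and in replicate 1 alone 3, 8, 1 and 8. All 4 genes had at least 1, as did 81.2% of coding genes. The neighbourhoods differed as well. The number of other protein-coding genes with a TSS within 50 kb was 0 for Atp1b1, 7 for Atp1b2, 1 for Atp1b3 and 4 for Atp1a4. Of the distal DHSs, the nearest TSS belonged to the gene itself for 1 of 2 in Atp1b1, 1 of 8 in Atp1b2, 0 of 1 in Atp1b3 and 2 of 8 in Atp1a4. No link from a distal site to a gene was measured.

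The distal sites of the beta genes were as follows. A distal site of Atp1b1 was at chr1:164395081-164395400, 63.1 kb from its most 5′ start and inside Nme7, which encodes a protein of the nucleoside diphosphate kinase family. Its signal was 0.7552 and 1.05. In Atp1b2 the site that belonged to the gene itself lies in the 3′ UTR, at chr11:69600181-69600440, 5.63 kb downstream of the start, with a signal of 1.187 and 1.354 and 2 and 4 footprints. It was lower than the Atp1b2 promoter in both libraries, which had 2.05 and 1.558. The UTR site overlapped a DHS of the stricter list in replicate 2 only. Upstream, a site at chr11:69614041-69614240, 8.2 kb away and closest to Shbg, the gene of sex hormone-binding globulin, had 1.449 and 1.439, an SD of 0.007184 over the libraries. The strongest site near Atp1b2 lay 24.4 kb away in a neighbouring gene, with 2.713 and 2.32. The single distal site of Atp1b3, at chr9:96320481-96321020, lay in the UTR of Tfdp2, whose product pairs with E2F factors, and had 0.5317 and 0.7218.

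Atp1a4 (gene ENSMUSG00000007107.6, chromosome 1, 172223513 to 172258414) was closed at both of its annotated starts and had only weak sites inside. It had no promoter DHS, no promoter footprint and no segment of the q-value track in its windows in either library. Its 2 shared body sites are in introns. One at chr1:172247301-172247600 had a signal of 0.3237 and 0.453, and one at chr1:172247829-172247933 had 0.3622 and 0.2788. A further site of replicate 2 alone, at chr1:172242401-172242760, had 0.5127. Each of these values was lower than any promoter value of the beta genes named above. Further promoter DHSs found in replicate 2 alone were as low, down to 0.229 in Atp1b1 and 0.3086 in Atp1b2. In replicate 1 neither body site held a footprint, and in replicate 2 the first held 2.

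The stronger sites around Atp1a4 lay outside it, within other genes. The highest of its 8 distal DHSs, at chr1:172217201-172217400 and 41.1 kb downstream of its start, lies in Casq1, which encodes the calcium-storing calsequestrin of muscle, and had 2.689 and 2.355. That level was above the Atp1b1 and Atp1b2 promoters in the same libraries. A further 4 lay in neighbouring genes upstream. The lowest q in the Atp1a4 body had a -log10 of 2.315 and 5.481, against 64.51 and 64.39 in the Atp1b3 body. The Atp1b3 body takes in part of its promoter DHS, so these values do not compare the interiors of the genes. DHSs covered a share of the Atp1a4 body that was higher than in 26.19% of the long genes in replicate 1 and in 61.9% of them in replicate 2.

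Related genes gave the wider setting of the pump. The list held 7 FXYD genes, whose small membrane proteins tune the pump, 4 Nkain genes, whose products bind the beta subunit, and 4 subunit genes of related pumps of other tissues. Of these 15, 9 had a promoter DHS in both libraries, 1 in replicate 2 alone and 5 in neither, near the 62.7% of all coding genes. The stricter list left 7 in both. By group, 4 of 7 FXYD genes, 3 of 4 Nkain genes and 2 of 4 pump genes had one in both libraries.

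The highest of the related promoters was that of Atp12a, which encodes the catalytic subunit of the non-gastric proton-potassium pump, with a signal of 2.535 and 1.702, a mean of 2.119 ± 0.589 (SD, n = 2). It was above the Atp1b1 and Atp1b2 promoters in replicate 1 and between them in replicate 2. Fxyd1, the gene of phospholemman, had 1.557 and 1.742, a mean of 1.649 ± 0.1312, and 2 TSSs of other genes lie within 2 kb of its own, so its peak cannot be assigned to it alone. Nkain2 followed with 1.033 and 0.9358, a mean of 0.9842 ± 0.06844. Nkain1 had a promoter DHS of 0.458 in replicate 2 and none in replicate 1. Atp1b4, the X-linked relative of the beta genes, Atp4b, the beta subunit of the gastric proton pump, and Fxyd2, the gamma subunit known from kidney, had none in either library. Every related promoter was lower than that of Atp1b3 in both libraries.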

How the data were processed

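DNase-seq libraries of 2 animals were compared as 1 group. Peaks and footprints were made by the authors on mm10 from the alignments of each library, unpooled, per the deposited notes. Aligner and callers, with their versions: not given in the sources used here. No scale is stated for the deposited peak signal. The authors' q-value track lists segments up to 0.05, and their deposited footprints carry the constant 0.01 in the p-value column, so only their positions were used. Depth is unknown, so no counting interval could be given.

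The larger of the 2 deposited peak lists per library was used. Genes were those of GENCODE M21 without the mitochondrial ones, and the file coordinates lay within the GRCm38.p6 chromosomes. Promoter windows were 1 kb on either side of every TSS, overlaps 1 bp or more. Sequences came from the GRCm38.p6 genome with samtools 1.23.1 and from RefSeq promoter windows of the same build. Python 3.11.15, NumPy 2.4.6, pandas 2.3.3 and Matplotlib 3.10.9 were used. The interval functions were tested on 500 simulated cases and returned 100% correct values.

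The genes and lists were chosen with earlier results of these data known. Named were all 4 genes, their promoter DHSs and the 3 highest shared distal or gene-body DHSs of each where they can be reported. Of the related genes, those named were the 3 with the highest mean promoter signal, the alphabetically first 3 that lacked a promoter DHS, and any called in 1 library alone. The Atp1b2 3′ UTR site and the Atp1a4 body sites were singled out after their values were seen. Some results on neighbouring genes and on sites within these genes are not reported here. Alternatives were other windows, TSS choices, distances, overlaps and peak lists, equal numbers of peaks, and leaving out each library.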

Additional observations from a re-analysis of the deposited data

How the results depend on the processing

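Of 110 alternative settings over 19 results, 85 left the value within its limit and 25 moved it. The limit was 1.5 times for a count and 1 SD over the libraries for a signal. The 3 genes with a promoter DHS stayed within it under every alternative run. So did the 9 related genes, which ranged from 6 with only the most 5′ TSS to 10 with replicate 2 alone, and the mean promoter signals. With 1 library the Atp1b3 mean ranged from 3.385 to 5.541. With n = 2, either library alone always lies within 1 SD of the mean. Leaving out a library therefore could not move a signal, and those outcomes among the 85 say nothing about stability. Within 20 kb of a TSS, distal DHSs numbered 1 for Atp1b1, 3 for Atp1b2, 0 for Atp1b3 and 3 for Atp1a4. Within 100 kb they numbered 4 for Atp1b1, 2 for Atp1b3 and 20 for Atp1a4. With the stricter list, distal DHSs were 0 for Atp1b3 and 1 for Atp1a4, and shared body DHSs 1 for Atp1b2 and 0 for Atp1a4. Requiring an overlap of 50% of both peaks left 4 distal DHSs and 1 body DHS for Atp1a4. Counting only footprints inside a DHS left 5 for Atp1b3. Using each library alone, distal DHSs ranged from 3 to 46 for Atp1b1 and from 1 to 15 for Atp1b3. Body DHSs ranged from 1 to 36 for Atp1b1, from 3 to 5 for Atp1b2 and from 2 to 5 for Atp1b3. Footprints ranged from 8 to 24 for Atp1b1, from 4 to 16 for Atp1b2 and from 10 to 14 for Atp1b3. With 1 library nothing has to be shared, so these values are higher by construction. The share of the Atp1b1 body in DHSs of replicate 2 fell from 35.56% to 13.78% with the stricter list and 10.67% with equal numbers of DHSs, both added after seeing the data. No paired analysis was possible because there is 1 group. Unknown depth, 2 libraries and a signal of unstated scale limit every value.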
